A study of Homo sapiens with 9 samples.

Results

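The nuclear genes of respiratory complexes III, IV and V were taken as all protein-coding genes of the expression table whose symbol begins with UQCR (complex III), COX4 to COX8 (complex IV) or ATP5 (complex V). These were 33 of the 22290 genes with values: 8 for complex III, 12 for complex IV and 13 for complex V, on 18 chromosomes. They are called subunits for short, although ATP5IF1 encodes an inhibitor and COX7A2L a factor that joins complexes. The annotation holds 46 such genes, and the other 13 were not analysed here: UQCR11, COX4I2, COX6A2, COX7B2, COX8A, COX8C, ATP5MC1, ATP5PO, ATP5PD, ATP5MF, ATP5MG, ATP5MGL and the read-through ATP5MF-PTCD1. The study sequenced RNA of cells labelled as the human neuroblastoma line IMR-32 in 9 libraries, 3 from each of 3 groups. The parental cells (PAR, genotype WT) were compared with cells labelled as a knockdown (KD) and cells labelled as an overexpression (OE) of TRAP-1, the mitochondrial HSP90-family chaperone. RNA was isolated in triplicate for each group. Nothing in the labels says whether the triplicates were separate cultures, or whether the KD and OE cells grew from 1 clone, so the p-values measure the spread between these libraries, which may be technical. Values are rlog, a regularised log2 of the read count that pulls small counts towards the gene's mean. All differences are therefore shrunken differences of log2 values, and the depth reached by each library cannot be read from them. The methods of the study give a single nominal number of reads for the sequencing.

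TRAP1, the gene named in the group labels, had rlog values of 10.67, 10.66 and 10.65 in PAR, 10.79, 10.79 and 10.83 in KD, and 10.67, 10.63 and 10.74 in OE. All 3 KD libraries lay above all PAR libraries, and the OE libraries overlapped PAR. The KD level was higher by 0.14 (adjusted p = 1.76e-05), the OE difference was 0.018 (adjusted p = 0.643), and OE was below KD by −0.12 (adjusted p = 1.47e-04), in limma fitted to all genes of the table. These values go against the labels, and 28.5% of the exonic bases of TRAP1 are shared with other annotated genes, whose reads cannot be told apart without strand. The groups are therefore called the libraries labelled KD and OE. Over all genes the root mean square difference was 0.0582 to 0.063 between libraries of 1 group and 0.137 to 0.255 between libraries of different groups.

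The label of the line was read against marker genes. MYCN, the oncogene amplified in IMR-32, had a mean rlog of 2.54, PHOX2A 1.34 and TH 2.73, where the lowest value of the table was 0.138. These low values go against the label of the line. The methods of the study state that the line was authenticated, and no check of identity beyond the markers was made on these libraries. The adrenergic transcription factors ISL1 and GATA2 stood at 9.30 and 9.20. DBH, DDC, STMN2 and ELAVL4 were not analysed here. Of 15 neuroblastoma markers 10 had values and 5 of these lay under a mean of 5. The summed level (2 to the power of rlog) of the list was 1590 to 1630 in the PAR libraries, 1462 to 1499 in KD and 1496 to 1582 in OE. Of 10 epithelial markers 7 had values, 3 under 5, led by KRT18 (12.04), with sums of 5831 to 5884 in PAR, 5917 to 6154 in KD and 5320 to 5383 in OE. Of 7 blood cell markers 4 had values, 2 under 5, led by CD74 (16.26), with sums of 77255 to 77576, 83879 to 86475 and 73031 to 73692 in the same order. Of 8 fibroblast markers 7 had values, 6 under 5, led by PDGFRB (8.53), with sums of 409 to 436, 411 to 465 and 444 to 462. Of 7 striated muscle markers 5 had values, 4 under 5, led by TNNT1 (8.99), with sums of 453 to 505, 508 to 532 and 583 to 602. The sums are of unlogged levels, so the highest genes weigh most. The blood cell sum was nearly all CD74, with LYZ at a mean of 5.82, PTPRC at 2.65 and HBA1 at 1.27. Genes of 1 list also went different ways. LYZ fell by 0.30 in KD while CD74 rose by 0.14, and KRT8 rose by 0.40 in OE while CLDN4 fell by 0.57. The part of these markers in the results was not tested.

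Complex III passes electrons from ubiquinol to cytochrome c, complex IV passes them from cytochrome c to oxygen, and both pump protons across the inner mitochondrial membrane. Complex V, the ATP synthase, lets the protons back through a rotating ring of c subunits and uses the turn to make ATP. Each is a mosaic of a few subunits encoded in mitochondrial DNA and many encoded in the nucleus, and some nuclear subunits have isoforms that differ between tissues such as heart, muscle, testis and the rest of the body.

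The first comparison asks how the RNA of these subunits in the cells labelled KD differs from that of the parental cells. In KD, 10 of the 33 genes were called higher (30.3%), 8 lower (24.2%) and 15 neither, at an adjusted p under 0.05. Over all genes tested, 26.9% were called higher and 26.9% lower, so both shares of the subunits were near the all-gene background. Among the 9956 genes whose mean rlog reached 8 the shares were 36.4% higher and 39.4% lower. Of the 30 subunits with a mean of at least 5, 33.3% were called higher and 26.7% lower. The lower share of the subunits was thus under that of well-expressed genes. With quantile normalization the split of the subunits was 12 higher and 6 lower, beside 26% and 27.1% of all genes. The median difference was 0.014, beside −0.00051 over all genes, and the largest difference of any member had a size of 0.324. Since the libraries are bulk RNA, fewer cells with a given RNA and less of it per cell cannot be told apart.

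In the libraries labelled OE, 17 genes were called higher (51.5%), 1 lower (3.03%) and 15 neither. The shares over all genes were 16.9% higher and 18% lower, and among genes whose mean reached 8 they were 25.2% and 31.5%. The median difference of the subunits was 0.054, beside 0.00039 over all genes, and no difference exceeded 0.171 in size. PAR replicate 3 had the lowest of the 3 parental values in 21 of the 33 subunits, against 7 for replicate 1 and 5 for replicate 2, while it was lowest in 32.8% of all genes. Without PAR replicate 3 the limma calls were 15 higher and 0 lower in OE (at an unadjusted p under 0.05, 17 and 0), and 9 higher and 9 lower in KD. The shares over all genes in that fit were 15.2% higher and 16.5% lower in OE, and 25.4% and 25.6% in KD.

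The KD and OE comparisons share the PAR libraries. Side by side, 10 genes were called higher in both: UQCRH, COX5B, COX6B1, COX6C, COX7A2, COX7A2L, COX7C, ATP5F1A, ATP5F1E and ATP5MC2. COX7B was called lower in KD and higher in OE, and ATP5F1D was called lower in both. The 6 genes called lower in KD and not called in OE were UQCR10, UQCRC1, UQCRFS1, UQCRQ, ATP5MK and ATP5PF. The 6 called higher in OE and not called in KD were UQCRB, UQCRC2, ATP5F1B, ATP5MC3, ATP5MJ and ATP5PB. Neither comparison called the remaining 9: UQCRHL, COX4I1, COX5A, COX6A1, COX6B2, COX7A1, ATP5F1C, ATP5IF1 and ATP5ME. Over all genes, with the same shared PAR libraries, 11% were called higher in both, 12.4% lower in both, 2.07% lower in KD and higher in OE, and 2.17% higher in KD and lower in OE. A further 12.4% were called lower in KD alone, 3.85% higher in OE alone, and 39.1% in neither. Another 13.7% were called higher in KD alone and 3.35% lower in OE alone, classes that held no member.

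**Figure D1:**
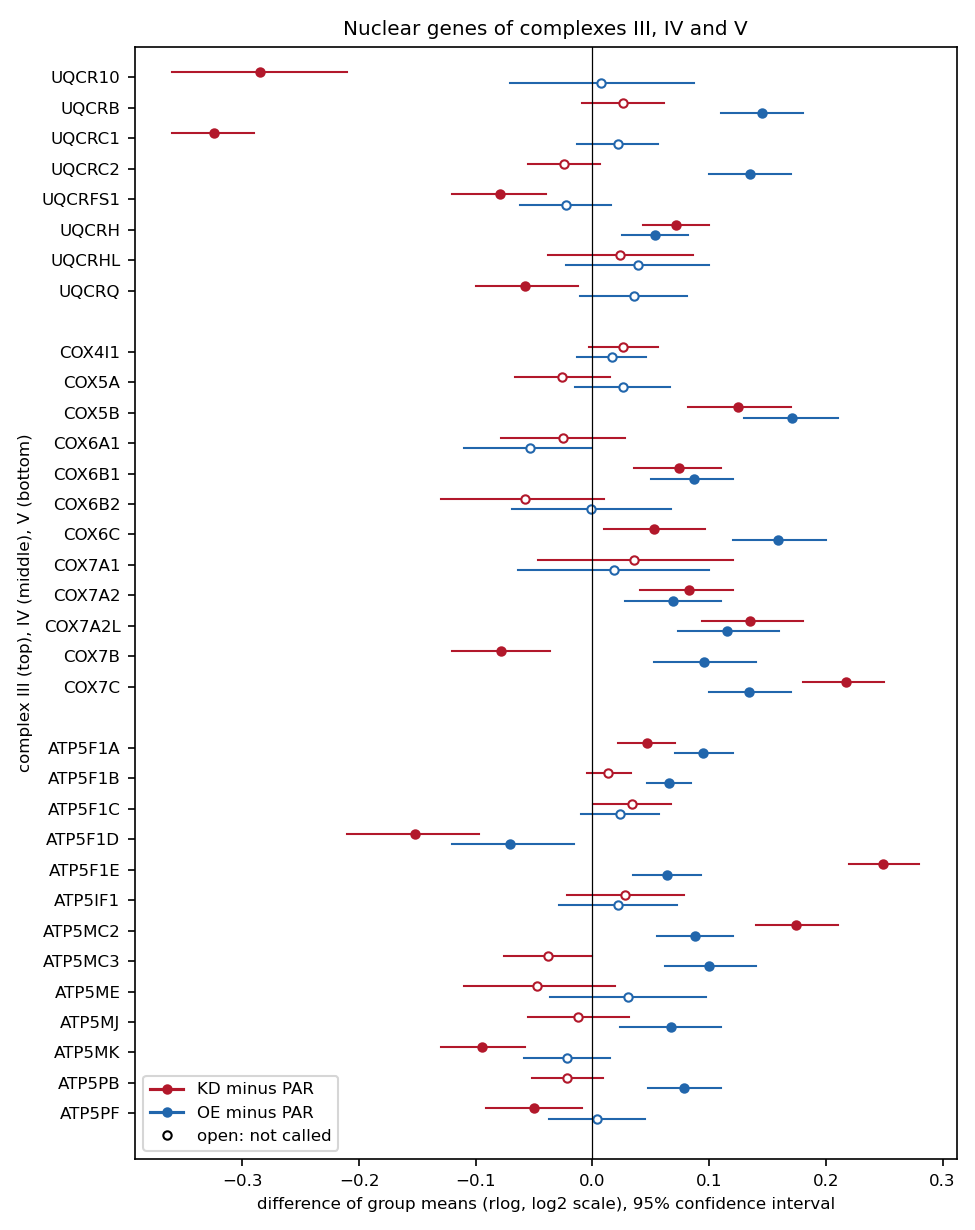
Difference in rlog (log2 scale) from the PAR mean for each of the 33 subunit genes, by complex, in the libraries labelled KD and OE, with 95% confidence intervals from limma and filled points for called genes. The KD differences run from −0.32 (UQCRC1) to 0.25 (ATP5F1E) and the OE differences from −0.07 (ATP5F1D) to 0.17 (COX5B).

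Respiratory subunit genes lie on many chromosomes, so their promoters were searched for sequences they share. RefSeq promoters (GRCh38.p14, 250 bases before to 50 after the start) were matched for 26 of the 33 genes. The others were UQCRB, UQCRHL, COX6C, COX7A1, ATP5F1B, ATP5F1D and ATP5MC3. On either strand, the ETS-family motif CCGGAAG, the form bound by GABP, was in 10.3% of all 35116 promoters and in 10 of the 26 (38.5%): UQCRH, UQCRQ, COX4I1, COX5B, COX6A1, COX6B1, ATP5F1A, ATP5ME, ATP5MK and ATP5PF. The TATA box motif TATAAA was in 11.5% of all promoters and in 3 of the 26 (11.5%), those of UQCRC2, COX7B and ATP5PF. The palindromic NRF1 motif of 10 letters was in 1.24% of all promoters and in that of ATP5F1C, and the YY1 motif of 10 letters in 1.2% and in those of UQCRC1 and ATP5PF. Their cores of 8 letters, chosen after the data were seen and lying inside the longer motifs, were CGCATGCG, in 2.02% of all promoters and 5 of the 26 (19.2%: COX6A1, ATP5F1C, ATP5MC2, ATP5ME and ATP5PF), and AAGATGGC, in 2.89% and 3 of the 26 (11.5%: UQCRC1, ATP5PB and ATP5PF). The shares of all promoters count promoters. Those of the 26 count genes with a match in any of their promoters, so the shares are in unlike units. A match describes letters in this window and is neither a binding site nor a cause.

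The 80 bases directly before the first annotated exon base are shown for 6 genes whose values are given in full further on, since promoters are where members that move together could share letters. Capitals mark the letters TATAAA (UQCRC2) and the ETS motif on either strand (UQCRH and COX5B), and the other 3 hold none of the searched motifs in these 80 bases. The stretch ends 73 bases before the RefSeq start for UQCRC2, 28 for COX7B, 13 for COX7C and 10 for ATP5F1E, and directly before it for UQCRH and COX5B. The positions on GRCh38.p14 are chr16:21953208-21953287 on the plus strand for UQCRC2, chr1:46303618-46303697 on the plus strand for UQCRH, and chr2:97645982-97646061 on the plus strand for COX5B. They are chr5:86617848-86617927 on the plus strand for COX7C, chrX:77899360-77899439 on the plus strand for COX7B, and chr20:59032346-59032425 on the minus strand for ATP5F1E.
UQCRC2: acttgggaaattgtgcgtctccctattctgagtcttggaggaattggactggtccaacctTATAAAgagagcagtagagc
UQCRH: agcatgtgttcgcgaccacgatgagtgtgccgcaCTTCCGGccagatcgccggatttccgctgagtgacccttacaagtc
COX5B: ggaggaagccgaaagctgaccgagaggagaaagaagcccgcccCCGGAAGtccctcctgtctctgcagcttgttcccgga
COX7C: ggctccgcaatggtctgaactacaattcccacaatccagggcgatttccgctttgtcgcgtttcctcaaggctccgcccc
COX7B: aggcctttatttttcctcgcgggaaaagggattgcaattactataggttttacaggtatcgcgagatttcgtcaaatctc
ATP5F1E: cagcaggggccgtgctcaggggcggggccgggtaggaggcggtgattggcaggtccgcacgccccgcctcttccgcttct

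In complex III, 4 of the 8 genes were called lower in KD and 1 higher, with a median of −0.041, beside 26.9% of all genes in each direction. UQCRC1 (ENSG00000010256), on chromosome 3 from 48599002 to 48610976, encodes a core protein of the matrix side. Its rlog values were 12.89, 12.91 and 12.89 in PAR, 12.54, 12.58 and 12.60 in KD, and 12.90, 12.91 and 12.94 in OE. All KD libraries lay below all others, and OE overlapped PAR. UQCRC1 fell by 0.32 in KD, to 0.799 of the parental level (SE 0.017, n = 3 per group, adjusted p = 3.7e-17 from limma), while the OE difference was 0.022 (adjusted p = 0.36).

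UQCR10 (ENSG00000184076), on chromosome 22 from 29767369 to 29770413, encodes a small subunit beside the iron-sulfur protein. Its values were 8.73, 8.68 and 8.68 in PAR, 8.43, 8.38 and 8.42 in KD, and 8.81, 8.62 and 8.68 in OE. The KD libraries lay below all others, and the OE libraries, which spread more widely (SD 0.093 against 0.0271 in PAR), lay on both sides of PAR. UQCR10 fell by 0.28 in KD (SE 0.039, adjusted p = 1.44e-07 from limma), with an OE difference of 0.0076 (adjusted p = 0.911). An unnamed annotated gene shares 24.5% of its exonic bases, and without strand their reads cannot be told apart. UQCRFS1, the Rieske iron-sulfur protein that carries electrons towards cytochrome c1, fell by 0.08 in KD (adjusted p = 6.63e-04) and was not called in OE (−0.023, adjusted p = 0.398). UQCRQ, a small ubiquinone-binding subunit, fell by 0.058 in KD (adjusted p = 0.0307), a call kept in 11 of 17 alternative fits (adjusted p from 0.00187 to 0.174) and lost without PAR replicate 1 (−0.042), PAR replicate 2 (−0.047), KD replicate 1 (−0.051) or KD replicate 2 (−0.044). That call was also lost with no variance trend (−0.058) or quantile normalization (−0.044). UQCRQ shares 11.5% of its exonic bases with GDF9.

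UQCRC2 (ENSG00000140740), on chromosome 16 from 21953288 to 21983660, is the partner of UQCRC1 in the core, and its promoter holds the TATAAA match shown above. Its values were 12.80, 12.81 and 12.80 in PAR, 12.78, 12.77 and 12.78 in KD, and 12.94, 12.92 and 12.95 in OE. The OE libraries lay above all others, and the KD libraries lay just under PAR. UQCRC2 rose by 0.13 in OE (SE 0.015, adjusted p = 9.29e-09 from limma) and was not called in KD (−0.024, adjusted p = 0.178). In these values UQCRC1 differed in KD and UQCRC2 in OE, and both differed between OE and KD (0.35, adjusted p = 1.1e-17, and 0.16, adjusted p = 1.12e-10). The KD contrast of the pair turned round when the median of neighbouring genes in a 20-Mb block was subtracted. UQCRC1 was then not called (−0.017) and UQCRC2 was called lower (−0.050, adjusted p = 0.00486, in a range up to 0.703, with 2 of 17 alternative fits making that call).

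UQCRB (ENSG00000156467), a ubiquinone-binding subunit of chromosome 8, had values of 12.24, 12.26 and 12.22 in PAR, 12.27, 12.25 and 12.28 in KD, and 12.40, 12.39 and 12.37 in OE. Its OE libraries lay above all others, and KD overlapped PAR. UQCRB rose by 0.14 in OE (adjusted p = 3.85e-08) and was not called in KD (0.026, adjusted p = 0.216). UQCRH (ENSG00000173660), the acidic hinge protein between cytochrome c1 and cytochrome c, had values of 13.83, 13.81 and 13.76 in PAR, 13.87, 13.86 and 13.88 in KD, and 13.85, 13.86 and 13.86 in OE. Both KD and OE lay above PAR, with PAR replicate 3 the lowest library. UQCRH rose by 0.07 in KD (adjusted p = 5.63e-05 from limma) and by 0.05 in OE (adjusted p = 2.72e-03). The OE call was kept in 14 of 17 alternative fits (adjusted p from 0.000711 to 0.0692). It missed the threshold without PAR replicate 3 (0.035), with each library centred (0.036) and with no variance trend (0.054). In OE, 3 genes of complex III were called higher and 0 lower by limma (at an unadjusted p under 0.05 also 3 and 0), with a median of 0.037, beside 16.9% and 18% of all genes. This median was smaller with each library centred, as given in the section on the processing.

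In complex IV, 6 of the 12 genes were called higher in KD and 1 lower, with a median of 0.044, beside 26.9% of all genes in each direction. COX7C (ENSG00000127184), on chromosome 5 from 86617928 to 86620962, encodes a small membrane subunit. Its values were 13.11, 13.12 and 13.06 in PAR, 13.29, 13.31 and 13.34 in KD, and 13.22, 13.21 and 13.26 in OE. The groups did not overlap, with PAR lowest, OE between and KD highest. COX7C rose by 0.22 in KD (SE 0.017, adjusted p = 6e-13 from limma) and by 0.13 in OE (adjusted p = 7.6e-08), and OE was below KD by −0.08 (adjusted p = 8.94e-05).

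COX5B (ENSG00000135940), on chromosome 2 from 97646062 to 97648383, encodes a zinc-binding subunit on the matrix side, and its promoter holds the ETS motif. Its values were 11.74, 11.78 and 11.73 in PAR, 11.85, 11.86 and 11.92 in KD, and 11.96, 11.90 and 11.91 in OE. KD and OE both lay above PAR and overlapped each other. COX5B rose by 0.13 in KD (adjusted p = 5.83e-06) and by 0.17 in OE (SE 0.021, adjusted p = 6.55e-08 from limma), or 12.6%. The OE and KD levels were not called different (0.046, adjusted p = 0.0767), a call made in 4 of 17 alternative fits (adjusted p from 0.0151 to 0.351).

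COX6C was also measured by qPCR in the study, which reports a decrease in KD and an increase in OE. This membrane subunit (ENSG00000164919), encoded on chromosome 8, had values of 11.48, 11.47 and 11.43 in PAR, 11.52, 11.51 and 11.52 in KD, and 11.61, 11.59 and 11.67 in OE. The groups did not overlap, with KD between PAR and OE. COX6C rose by 0.16 in OE (adjusted p = 2.78e-07 from limma). The KD difference of 0.05 (adjusted p = 0.0348) was called in 10 of 17 alternative fits (adjusted p from 0.0184 to 0.178), and not without PAR replicate 3 (0.038), KD replicate 1 (0.049), KD replicate 2 (0.058) or KD replicate 3 (0.052). That call was also lost with no variance trend (0.053), each library centred (0.042) or block medians subtracted (0.039). An unnamed gene shares 11.8% of its exonic bases.

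COX7B (ENSG00000131174), on chromosome X from 77899440 to 77907376, encodes a small membrane subunit needed for the assembly of the complex. Its values were 11.77, 11.81 and 11.72 in PAR, 11.68, 11.70 and 11.68 in KD, and 11.88, 11.84 and 11.86 in OE. The groups did not overlap, with KD below PAR and OE above it. COX7B fell by 0.08 in KD (adjusted p = 1.85e-03) and rose by 0.10 in OE (adjusted p = 4.36e-04). The 2 groups differed by 0.17 (adjusted p = 1.85e-08 from limma), and the 3 calls were kept in 17 of 17 alternative fits.

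COX7A2L, a COX7A-related factor that joins complexes III and IV into supercomplexes, rose by 0.14 in KD (adjusted p = 9.55e-07) and by 0.11 in OE (adjusted p = 3.02e-05). COX6B1, a subunit that links the partners of the complex IV dimer on the intermembrane side, rose by 0.07 in KD (adjusted p = 9.29e-04) and by 0.09 in OE (adjusted p = 2.7e-04). COX4I1, the common form of the largest nuclear subunit, was not called (0.026 in KD, adjusted p = 0.124, and 0.016 in OE, adjusted p = 0.422). COX5A, a matrix-side subunit, differed by −0.026 in KD and 0.026 in OE and was not called in either. In OE, 7 genes of complex IV were called higher and 0 lower by limma (at an unadjusted p under 0.05, 7 and 1), with a median of 0.078, beside 16.9% and 18% of all genes.

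**Figure D2:**
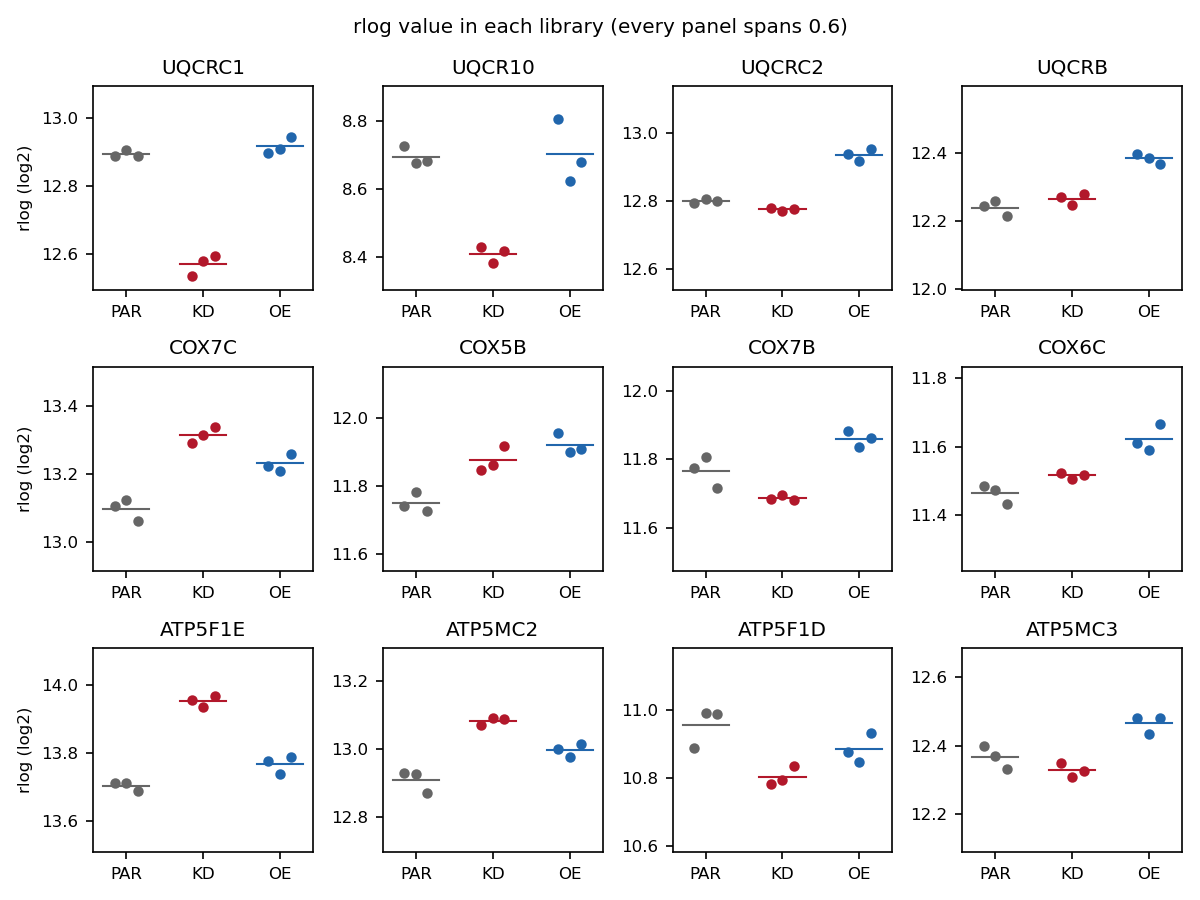
The rlog value (log2 scale) of 12 subunit genes, with 1 point per library and a bar at each group's mean, every panel spanning 0.6. COX7B has its KD libraries below PAR and its OE libraries above, UQCRC1 and UQCR10 have low KD libraries only, and ATP5F1E has its 3 KD libraries highest.

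In complex V, 3 of the 13 genes were called higher in KD and 3 lower, with a median of −0.012, beside 26.9% of all genes in each direction. ATP5F1E (ENSG00000124172), on chromosome 20 from 59025475 to 59032345, encodes the epsilon subunit of the central stalk. Its values were 13.71, 13.71 and 13.69 in PAR, 13.96, 13.93 and 13.97 in KD, and 13.78, 13.74 and 13.79 in OE. The groups did not overlap, with KD highest and OE just above PAR. ATP5F1E rose by 0.25 in KD, or 18.8% (SE 0.014, adjusted p = 2.42e-16 from limma), and by 0.06 in OE (adjusted p = 4.24e-04), and OE was below KD by −0.19 (adjusted p = 5.99e-13). TUBB1 shares 23.2% of its exonic bases, and the level of TUBB1 itself was 7.77 in PAR and 7.96 in KD.

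ATP5MC2 (ENSG00000135390), on chromosome 12 from 53632726 to 53677408, is among the genes whose products are all cut to the same c subunit of the rotor ring. Its values were 12.93, 12.93 and 12.87 in PAR, 13.07, 13.09 and 13.09 in KD, and 13.00, 12.98 and 13.02 in OE. The groups did not overlap, and KD was highest. ATP5MC2 rose by 0.17 in KD (adjusted p = 6.33e-11 from limma) and by 0.09 in OE (adjusted p = 5.11e-05). ATP5F1A (ENSG00000152234), the alpha subunit of the catalytic head, had values of 14.06, 14.06 and 14.04 in PAR, 14.11, 14.10 and 14.09 in KD, and 14.14, 14.15 and 14.15 in OE. The order there was PAR, KD, OE with no overlap. ATP5F1A rose by 0.05 in KD (adjusted p = 1.13e-03) and by 0.09 in OE (adjusted p = 7.43e-08).

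ATP5F1D (ENSG00000099624), on chromosome 19 from 1241746 to 1244825, encodes the delta subunit of the central stalk. Its values were 10.89, 10.99 and 10.99 in PAR, 10.78, 10.80 and 10.83 in KD, and 10.88, 10.85 and 10.93 in OE. KD lay below PAR, and OE overlapped PAR. ATP5F1D fell by 0.15 in KD (adjusted p = 1.18e-05 from limma). Its OE difference of −0.07 (adjusted p = 0.0392), the 1 lower call of OE, was kept in 8 of 17 alternative fits (adjusted p from 0.00307 to 0.676). It was lost without PAR replicate 2 (−0.053), PAR replicate 3 (−0.054), KD replicate 2 (−0.070), OE replicate 1 (−0.065) or OE replicate 2 (−0.052). The other losses were with no variance trend, only the 6 libraries compared, quantile normalization (−0.055) and block medians subtracted (−0.016). ATP5MK, a small membrane subunit of the dimer, fell by 0.10 in KD (adjusted p = 3.82e-05) and shares 18.1% of its exonic bases with TAF5 and a microRNA gene. ATP5PF, coupling factor 6 of the peripheral stalk, fell by 0.05 in KD (adjusted p = 0.0373). That call was kept in 11 of 17 alternative fits (adjusted p from 0.00425 to 0.135) and lost without PAR replicate 1 (−0.041), PAR replicate 2 (−0.042), KD replicate 2 (−0.044) or KD replicate 3 (−0.047). It was also lost with no variance trend (−0.050) or quantile normalization (−0.041). JAM2 and GABPA share 37.3% of the exonic bases of ATP5PF.

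ATP5F1B (ENSG00000110955), on chromosome 12 from 56638175 to 56645984, encodes the beta subunit that holds the catalytic sites. It was another gene of the qPCR, for which the study also reports a decrease in KD and an increase in OE. The primers, printed because they show which part of the gene that assay read, matched the canonical transcript of 1759 bases and 10 exons at bases 70 to 89 (exon 1) and 218 to 237 (exon 2), for a product of 168 bases. On GRCh38 these are chr12:56645896-56645915 and chr12:56645265-56645284, with the gene on the minus strand.
ATP5F1B forward primer: ttgcggagactcaccccttc
ATP5F1B reverse primer: gtccaccactgcgccaatga
In the libraries, ATP5F1B had rlog values of 15.37, 15.37 and 15.35 in PAR, 15.38, 15.38 and 15.38 in KD, and 15.43, 15.43 and 15.43 in OE. OE lay above all others, and KD stood just above PAR. ATP5F1B rose by 0.07 in OE, or 4.65% (adjusted p = 7.26e-07 from limma), and its KD difference was 0.014 (95% interval −0.0051 to 0.033, adjusted p = 0.22).

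ATP5MC3 (ENSG00000154518), which encodes the same mature c subunit as ATP5MC2, had values of 12.40, 12.37 and 12.33 in PAR, 12.35, 12.31 and 12.33 in KD, and 12.48, 12.44 and 12.48 in OE. OE lay above PAR, and KD overlapped it. ATP5MC3 rose by 0.10 in OE (adjusted p = 5.66e-05 from limma) and was not called in KD (−0.038, adjusted p = 0.0844). ATP5PB, the b subunit of the peripheral stalk, rose by 0.08 in OE (adjusted p = 7.74e-05). ATP5MJ, a small membrane subunit, rose by 0.07 in OE (adjusted p = 0.0122), a call kept in 14 of 17 alternative fits (adjusted p from 1.11e-05 to 0.0783) and lost without PAR replicate 3 (0.054) or OE replicate 3 (0.057). That call was also lost with each library centred (0.049). ATP5F1C (gamma subunit of the rotor), ATP5IF1 (an inhibitor that binds the enzyme when it runs backwards, and not a subunit) and ATP5ME (a membrane subunit sharing 61.3% of its exonic bases with MYL5) were called in neither comparison. In OE, 7 genes of complex V were called higher and 1 lower, with a median of 0.064, beside 16.9% and 18% of all genes.

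The direct comparison of OE with KD tests whether the differences from PAR differ between the labels. It called 18 of the 33 genes higher in OE (54.5%), 3 lower (9.09%) and 12 neither, beside 23.5% higher and 23.8% lower over all genes and 33.3% and 34.9% among genes whose mean reached 8. The median was 0.052, against 0.00078 over all genes. In complex III, 6 of 8 were called higher and 0 lower by limma (at an unadjusted p under 0.05 also 6 and 0), with a median of 0.11, led by UQCRC1 and UQCR10 (0.29, adjusted p = 1.19e-07). With the medians of 20-Mb blocks subtracted UQCRC1 differed by only 0.043 (adjusted p = 0.031, the highest of a range from 5.49e-24), UQCR10 by 0.33 and UQCRC2 by 0.22, and the call of UQCRFS1 was lost (0.015, adjusted p = 0.537, the highest of a range from 0.00209). In complex IV, 3 of 12 were called higher, COX7B, COX6C (0.11, adjusted p = 9.09e-05) and COX5A (0.05, adjusted p = 0.0326, called in 11 of 17 alternative fits with a range from 0.00719 to 0.154), and COX7C was called lower, with a median of 0.0017. In complex V, 9 of 13 were called higher, with a median of 0.054, and ATP5F1E and ATP5MC2 (−0.09, adjusted p = 4.28e-05) were called lower. ATP5ME was the least stable of these higher calls, kept in 8 of 17 alternative fits (adjusted p from 0.000167 to 0.166). The genes called lower in this comparison were all called higher than PAR in both KD and OE.

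Library by library, the median deviation of the complex IV genes from the PAR mean was 0.011, 0.023 and −0.022 in PAR, 0.039, 0.053 and 0.051 in KD, and 0.092, 0.071 and 0.07 in OE. For complex III it was 0.016, 0.011 and −0.018 in PAR, −0.046, −0.053 and −0.02 in KD, and 0.045, 0.029 and 0.06 in OE. For complex V it was 0.004, 0.016 and −0.015 in PAR, −0.0049, −0.032 and 0.0027 in KD, and 0.067, 0.034 and 0.067 in OE. The OE libraries had the highest medians for each complex, and the KD libraries were lowest for complex III, in the middle for complex IV and overlapping PAR for complex V.

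Of the tissue isoforms, COX7A1 is the heart and muscle form and COX7A2 the widespread form of the same subunit. COX7A2 (ENSG00000112695) had values of 11.81, 11.85 and 11.81 in PAR, 11.94, 11.89 and 11.89 in KD, and 11.92, 11.90 and 11.87 in OE. KD and OE lay above PAR and overlapped each other. COX7A2 rose by 0.08 in KD (adjusted p = 7.66e-04 from limma) and by 0.07 in OE (adjusted p = 7.17e-03), and without OE replicate 1 the OE difference of 0.056 was not called. Over the 17 alternative fits its adjusted p ran from 0.000233 to 1 in KD and from 0.000941 to 0.528 in OE. COX7A1 had a mean rlog of 4.02 and was not called. Within a library COX7A2 exceeded COX7A1 by a mean of 7.82 in PAR, 7.87 in KD and 7.87 in OE (SD 0.077, 0.073 and 0.034, n = 3), which was 7.41 over all libraries per kilobase of transcript.

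COX6B1 is the widespread form and COX6B2 the testis form of another subunit. COX6B2 had a mean rlog of 3.02, shared 29.1% of its exonic bases with an unnamed gene, and was not called. COX6B1 exceeded it within a library by a mean of 9.22 in PAR, 9.35 in KD and 9.31 in OE, or 10.98 over all libraries per kilobase. COX6A1, the form outside heart and muscle, had a mean of 2.37 and was not called, while its processed pseudogene COX6A1P2 stood at 7.66. Because reads of a copy can align to either place, the level of COX6A1 is uncertain. COX4I2, the lung form that low oxygen raises, and the forms COX6A2 (heart and muscle), COX7B2 and COX8C (testis), with COX8A, were not analysed here. Of the 33 genes, 30 had a mean rlog of 5 or more, and COX6A1, COX6B2 and COX7A1 were the 3 below it.

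UQCRHL, an intronless near-copy of UQCRH, had a mean rlog of 9.56 and was not called (0.024 in KD, adjusted p = 0.54, and 0.039 in OE, adjusted p = 0.363). UQCRH exceeded it by 4.26 in PAR, 4.30 in KD and 4.27 in OE, or 3.32 per kilobase, and the split of reads between the copies is uncertain. For the c subunit, the rlog of ATP5MC2 minus that of ATP5MC3 in the same library was 0.532, 0.558 and 0.540 in PAR, 0.724, 0.781 and 0.763 in KD, and 0.517, 0.543 and 0.534 in OE. The KD libraries lay above all others, and OE overlapped PAR. The mean shift of this difference was 0.21 in KD and −0.012 in OE, given as a description with no test, since both genes were already tested singly.

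**Figure D3:**
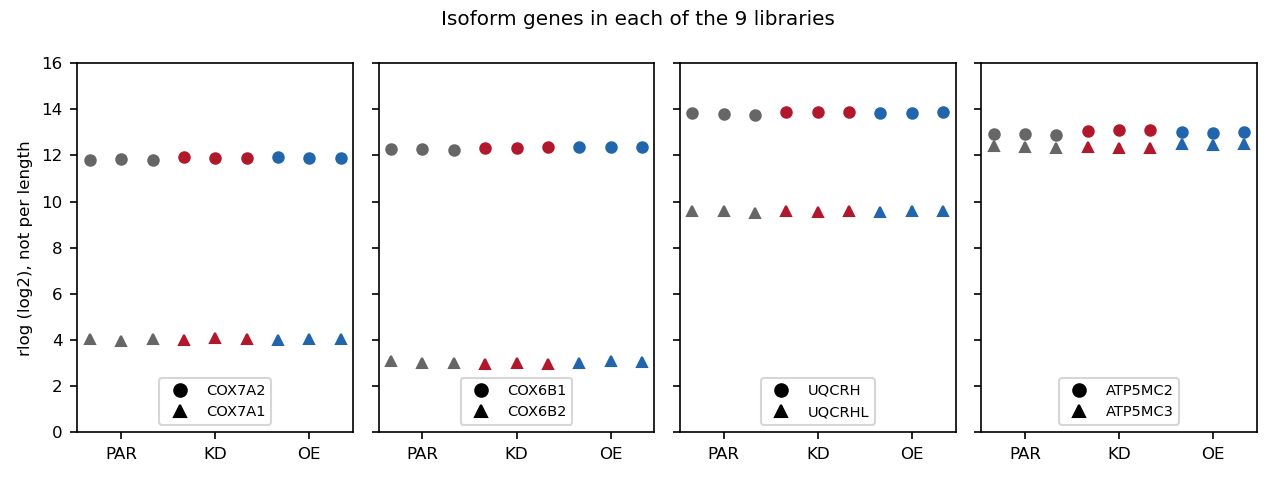
Values of 4 pairs of related genes (rlog, log2 scale, not per length) in each of the 9 libraries, with 1 point per library. COX7A1 and COX6B2 lie under 5 in each group, and ATP5MC2 and ATP5MC3 stand farther apart in KD than in PAR or OE.

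In a few stretches of chromosome most genes differed in KD in the same direction, so each gene was set beside its block of 20 Mb, taking the median over the genes whose mean rlog reached 8. The block of UQCRC1 on chromosome 3 held 138 such genes, of which 91.3% were called lower in KD, with a median of −0.31. Most blocks of the other subunits were mixed, such as that of UQCRH, with 32% called lower and 35.9% higher. With block medians subtracted UQCRC1 differed by −0.017 (adjusted p = 0.383, the highest of a range from 4.94e-23 over 17 alternative fits) and was no longer called. UQCR10 on chromosome 22 lay in a block of 124 genes with a median of −0.012 and kept its difference (−0.27, adjusted p = 3.01e-07, in a range from 1e-08 to 0.000183). COX7C (34 genes, median 0.037) and ATP5F1E (80 genes, median 0.071) also kept their calls, with ATP5F1E at 0.18.

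The call of UQCRFS1 in KD was lost with block medians subtracted (−0.037, adjusted p = 0.0971, the highest of a range from 0.000193). The KD call of COX6C was lost too (0.039, limma adjusted p = 0.118). COX7A2 was itself the median gene of its block of 21 genes in KD (0.083), so the subtraction left 0 by construction and says nothing about its KD call. In OE its call was lost (0.018). ATP5F1C on chromosome 10 moved the other way: its 51 block genes had a median of −0.13 in KD, and with that subtracted it was called higher (0.17, adjusted p = 1.37e-10, in a range from there to 0.254). ATP5F1B turned to −0.029 in KD after the subtraction (adjusted p = 0.0075, in a range up to 0.849). For COX4I1 the OE difference became 0.11 (adjusted p = 3.88e-07, in a range up to 0.95). With block medians subtracted 11 of the 33 genes were called higher in KD and 12 lower, and 19 higher and 0 lower in OE (at an unadjusted p under 0.05, 20 and 0 in OE). The calls gained in KD were lower for UQCRC2, COX5A (−0.062, adjusted p = 0.00834, in a range up to 0.749), ATP5F1B, ATP5MC3, ATP5ME and ATP5PB, and higher for COX4I1 (0.061, adjusted p = 4e-04, in a range up to 0.412), ATP5F1C and ATP5IF1. Those gained in OE were higher, for COX4I1, ATP5F1C and UQCRHL. Over all genes the same fit called 30.7% higher and 29% lower in KD, and 22.4% higher and 16.7% lower in OE. TRAP1 itself, in a block of 147 genes on chromosome 16, was then called higher in OE too (0.074, adjusted p = 0.0186, in a range up to 0.999), and OE against KD was not called (−0.052, adjusted p = 0.0796, in a range from 7.83e-06). The cause of the block differences was not tested.

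**Figure D4:**
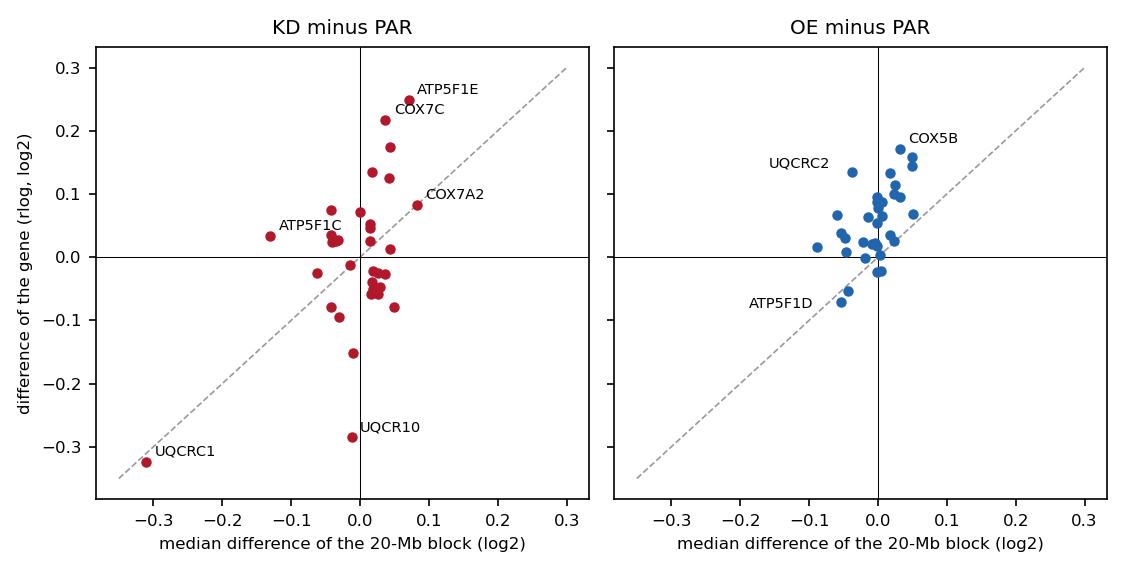
Difference of each subunit gene from PAR (rlog, log2 scale) against the median difference of genes in its 20-Mb block, in KD and in OE, with a line where they are equal. UQCRC1 lies near the line in KD at a block median of −0.31, while UQCR10 and COX7C lie away from it.

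The subunits encoded in mitochondrial DNA, made inside the organelle, all had values. In KD 4 of 6 were called higher and 2 lower, with a median of 0.06, and in OE 5 were called higher and 0 lower by limma, with all 6 differences above 0 and a median of 0.12. The shares over all genes were 26.9% in each direction in KD, and 16.9% higher and 18% lower in OE. MT-CO2, which takes electrons from cytochrome c in complex IV, rose by 0.42 in KD (adjusted p = 6.17e-25) and by 0.17 in OE (adjusted p = 1.02e-13). MT-CO1, the catalytic subunit, rose by 0.17 in KD, and MT-CO3 rose by 0.14 in OE (adjusted p = 2.13e-13). MT-ATP8 of complex V fell by 0.14 in KD (adjusted p = 7.12e-05), although its KD libraries overlapped PAR. That call was kept in 16 of 17 alternative fits and lost with a robust variance prior (adjusted p = 0.0707, the highest of a range from 1.32e-07). Other annotated genes share 22.2% of the exonic bases of MT-ATP8 and 6.9% of those of MT-ATP6. The split of the OE calls depended on the scaling. With quantile normalization MT-CO1 and MT-CO3 in OE were tied with PAR, MT-CO2 in OE was not called (0.0235), MT-ATP6 was called lower, and MT-CYB and MT-ATP8 were called higher. In KD, MT-CO1 was tied with PAR and MT-CO2 differed by 0.274.

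MT-ATP6, the proton channel subunit of complex V, had values of 17.05, 17.05 and 17.02 in PAR, 16.97, 16.92 and 16.95 in KD, and 17.11, 17.10 and 17.08 in OE. The groups did not overlap, with KD below PAR and OE above it, the same order as COX7B. MT-ATP6 fell by 0.09 in KD (adjusted p = 4.28e-10) and rose by 0.06 in OE (adjusted p = 9.34e-06), and OE exceeded KD by 0.15 (adjusted p = 6.72e-15 from limma). With quantile normalization, which ties the most abundant genes, the OE difference was −0.044 (adjusted p = 5.4e-05, in a range from 3.84e-07 to 0.0482), and the KD difference was −0.25.

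The nuclear genes of complexes III and IV outside the symbol rule were CYC1 and NDUFA4, of which 1 of 2 was called lower in KD and 1 of 2 higher in OE. Over all genes 26.9% were called lower in KD and 16.9% higher in OE. CYC1 (ENSG00000179091), the cytochrome c1 of complex III, had values of 12.72, 12.69 and 12.73 in PAR, 12.46, 12.49 and 12.54 in KD, and 12.70, 12.72 and 12.75 in OE. Its KD libraries lay below all others. CYC1 fell by 0.22 in KD (adjusted p = 5.98e-12), in a block of 64 genes of which 79.7% were called lower. With the block median subtracted the KD difference was 0.0094 (adjusted p = 0.679, in a range from 1.89e-15 over 17 alternative fits), and in OE CYC1 was then called higher (0.082, adjusted p = 0.000509, in a range up to 0.923). NDUFA4, now counted as a subunit of complex IV, rose by 0.08 in OE (adjusted p = 3.94e-04) and differed by 0.037 in KD.

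CYCS (ENSG00000172115), the cytochrome c that carries electrons from complex III to complex IV, had values of 12.92, 12.98 and 12.94 in PAR, 12.61, 12.62 and 12.62 in KD, and 12.94, 12.88 and 12.90 in OE. The KD libraries lay below all others, and OE overlapped PAR. CYCS fell by 0.33 in KD (adjusted p = 2.6e-17 from limma) and differed by −0.035 in OE (adjusted p = 0.11), in a chromosome 7 block of 59 genes with a median of 0.021 in KD. In OE it was called lower in 3 of 17 alternative fits (adjusted p from 0.0033 to 0.475), with block medians subtracted (−0.063), with each library centred (−0.053) and without OE replicate 1 (−0.052).

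The assembly factors build the complexes and are not part of them. Their counts stand beside the same all-gene shares, 26.9% in each direction in KD, and 16.9% higher and 18% lower in OE. For complex III, 9 of 9 had values, with 1 called higher and 4 lower in KD (median −0.017) and the same counts in OE (median −0.072). UQCC1, which handles newly made cytochrome b, fell by 0.43 in KD (adjusted p = 7.03e-19) and by 0.15 in OE, and UQCC5 fell by 0.33 in KD and by 0.096 in OE. The OE call of UQCC5 was kept in 14 of 17 alternative fits (adjusted p from 0.00618 to 0.105). UQCC4 fell by 0.23 in KD and by 0.18 in OE, and TTC19, which clears fragments of the Rieske protein, rose by 0.16 in KD and by 0.12 in OE. The block of UQCC1 on chromosome 20 (90 genes) had a median of −0.33 in KD. With it subtracted UQCC1 kept its KD call (−0.096), and its OE call was lost (−0.039, adjusted p = 0.0979, the highest of a range from 6.47e-09). UQCC5 shares the block of UQCRC1, and its KD call was lost in the same way (−0.019, adjusted p = 0.635, the highest of a range from 1.33e-11).

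For complex IV, 23 of 30 assembly factors had values, with 6 called higher and 7 lower in KD (median 0.016) and 3 higher and 5 lower in OE (median −0.027). SMIM20, which stabilises newly made MT-CO1, rose by 0.25 in KD and was not called in OE, and COX20, a chaperone of MT-CO2 with 76.6% of its exonic bases shared, rose by 0.21 in KD and by 0.12 in OE. With block medians subtracted the KD difference of SMIM20 was 0.14. In OE it was then called higher (0.079, limma adjusted p = 0.0157), as in 2 of 17 alternative fits. COA5 rose by 0.12 in KD and by 0.10 in OE. COA6, which helps to load copper, fell by 0.30 in KD and by 0.15 in OE, TACO1, a translational activator of MT-CO1, fell by 0.27 in KD and by 0.15 in OE, and COA7 fell by 0.27 in KD and by 0.18 in OE. For complex V, 6 of 6 had values, with 1 called higher and 1 lower in KD and 2 higher and 1 lower in OE. TMEM242 rose by 0.34 in KD and by 0.35 in OE, ATPAF1, which guards the beta subunit, rose by 0.066 in OE, and TMEM70, which helps to build the c ring, fell by 0.20 in KD and by 0.13 in OE. The call of ATPAF1 was kept in 16 of 17 alternative fits and lost with each library centred (0.048, limma adjusted p = 0.0607).

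**Figure D5:**
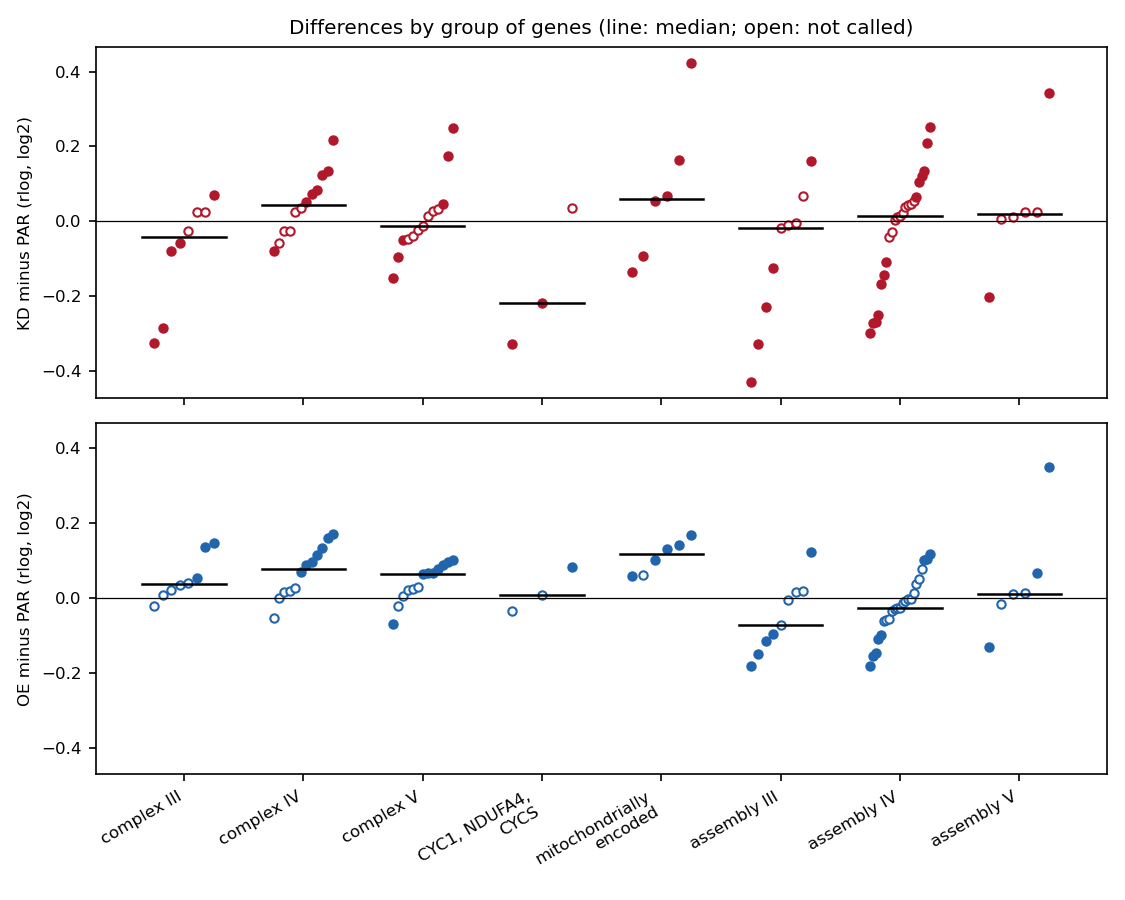
Differences from PAR (rlog, log2 scale) of single genes in KD (top) and OE (bottom), grouped into the 3 complexes, CYC1 with NDUFA4 and CYCS, the subunits encoded in mitochondrial DNA and the assembly factors, with a line at each group's median and open points for genes not called. The medians of complexes III, IV and V in OE are 0.037, 0.078 and 0.064, and those of the factors assembling III and IV are −0.072 and −0.027.

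Of 9 nuclear regulators of respiratory genes, 3 were called higher and 3 lower in KD, and 2 higher and 3 lower in OE, beside 26.9% of all genes in each direction in KD, and 16.9% and 18% in OE. PPARGC1A, the coactivator PGC-1alpha, rose by 0.62 in KD, from a mean of 7.27 to 7.89 (adjusted p = 1.34e-14), and by 0.21 in OE. PPARGC1B, its relative, fell by 0.52 in KD, from 9.46 to 8.95 (adjusted p = 2.24e-15), and by 0.27 in OE. SP1 rose by 0.14 in KD and by 0.068 in OE, and PPRC1 fell by 0.19 in KD and by 0.23 in OE. NRF1 and GABPA, which bind the NRF1 and ETS motifs counted above, were called in neither comparison. YY1, whose motif was counted too, rose by 0.07 in KD (adjusted p = 0.000715) and was not called in OE. GABPB1, the partner of GABPA, fell by 0.066 in KD (adjusted p = 0.0281), a call kept in 12 of 17 alternative fits (adjusted p from 0.0105 to 0.148). NRF1, GABPA, YY1 and GABPB1 were named after their values were seen. Of the 3 genes listed for the response to low oxygen, LONP1, a protease of the matrix, rose by 0.12 in KD and by 0.08 in OE, NDUFA4L2 was not called and COX4I2 was not analysed here.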

How the data were processed

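RNA of 9 libraries (TruSeq, unstranded) was sequenced. The authors trimmed with cutadapt, aligned with HISAT2 to GRCh38, counted with featureCounts, removed genes with low counts and deposited DESeq2 rlog values (log2 scale), without tool versions. The depth of each library is not in the files. Symbols came from GENCODE 44 by Ensembl ID. All 22290 genes were fitted with limma 3.58.1 (R 4.3.3, trend on the level, two-sided) and adjusted by Benjamini-Hochberg over all genes, and a gene was called at an adjusted p under 0.05. The method was tested on simulated data. Python 3.11.15 and matplotlib 3.10.9 read sequences and drew plots. Named genes were TRAP1, per complex and comparison with PAR up to 3 largest called in each direction, isoform members, ATP5F1B and COX6C, per pathway list the 2 largest called in each direction, and called members of opposite sign. Pathway lists were further subunits, electron carrier, assembly factors of each complex, subunits of mitochondrial DNA, regulators and HIF-induced genes. Members and lists were chosen with earlier results of these data known. Alternatives were other variance models, a filter on low values, the 6 compared libraries, centring, quantile normalization, 20-Mb block medians, a replicate block, stricter thresholds and each library left out.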

Additional observations from a re-analysis of the deposited data

Results flagged for a closer look

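For COX7B and MT-ATP6 the libraries labelled KD and OE were called in opposite directions from PAR, and limma called the difference between the labels. OE exceeded KD by 0.174 for COX7B (adjusted p = 1.85e-08) and by 0.151 for MT-ATP6 (adjusted p = 6.72e-15), with no overlap between any of the 3 groups. COX7B kept its 3 calls in 17 of 17 alternative fits. The OE difference of MT-ATP6 turned to −0.044 with quantile normalization, while OE still exceeded KD. No explanation was tested.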

How the results depend on the processing

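Replicate number showed no consistent pairing, as residuals of same-number libraries correlated by −0.071 to 0.14 over 9 pairs. Of these, 2 exceeded 0.1, both between KD and OE (0.12 for replicate 1 and 0.14 for replicate 3). Over 276 gene differences, replicate number as a block left 275 on the same side of the threshold and, where called, in the same direction. Signs of uncalled values were not counted. Block medians of 20 Mb kept 223, with 17 calls lost, 25 gained and 11 values, each called in at least 1 of the fits compared, changing direction or sitting at 0. Leaving out 1 library gave 15 to 18 called members in KD (9 to 11 higher, 6 to 9 lower), 15 to 18 in OE (15 to 17 higher, 0 to 1 lower) and 17 to 21 for OE against KD (14 to 18 higher, 3 lower). Of all 22290 genes those fits called 11106 to 12030 in KD, 6857 to 7762 in OE and 9636 to 10575 for OE against KD. The 1 lower call of OE, ATP5F1D, was lost without PAR replicate 2 (COX6A1 was then called instead), PAR replicate 3, KD replicate 2, OE replicate 1 or OE replicate 2. In limma, members lower in OE numbered 0 with no variance trend, with only the 6 libraries compared, with quantile normalization and with block medians subtracted. They numbered 0 also at an adjusted p under 0.01, and 2 with each library centred on its median. The unadjusted count was 2 in the fit reported. Over all genes, 17.3% were lower in OE with quantile normalization and 16.7% with block medians, beside 18% in the fit reported. Genes called in either direction in OE numbered 7220 with no variance trend and 7550 with only the 6 libraries. They numbered 5953 at an adjusted p under 0.01 and 8175 with centring, beside 7764 in the fit reported. Requiring an rlog difference over 0.5 left 0 members in KD, OE and OE against KD, higher and lower alike, while 1110, 200 and 793 genes of the whole table passed. This follows from the members' differences, none above 0.346 in size. Centring gave OE medians of 0.019 for complex III, 0.060 for IV and 0.046 for V, and block medians gave 0.055 for III. Among values called in either fit, block medians changed the direction for ATP5F1B in KD (−0.0292), COX18 in KD (−0.266), CYC1 in KD (0.0094) and SURF1 in KD (0.180), and COX7A2 in KD came to 0 by construction, being the median gene of its block. For OE against KD it changed for CMC1 (−0.0307), COX18 (0.323), COX4I1 (0.0437), LONP1 (0.00217), SURF1 (−0.139) and UQCC5 (−0.0737). The cause was not tested. Quantile normalization, which ties the most abundant genes by construction, gave MT-ATP6 in OE −0.0436, MT-CO1 in KD 0, MT-CO3 in OE 0, MT-CO1 in OE 3.55e-15, and for OE against KD MT-CO1 3.55e-15 and MT-CO3 −0.177. The depth of each library is not in the files, so its limit on single values was not computed.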

Other observations

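The table also held 15 pseudogene, antisense or divergent transcript rows whose symbols begin with the same letters. Of these, 2 had a mean rlog of 5 or more, COX6A1P2 (7.66) and ATP5MC2P4 (6.90). The limma fit called 2 higher in KD, COX6CP2 by 0.082 (adjusted p = 0.00169, mean rlog 1.81) and UQCRB-AS1 by 0.074 (adjusted p = 0.0378, mean rlog 2.07), both named after their values were seen. It called 0 lower in KD, and 0 higher and 0 lower in OE. Over all genes the shares were 26.9% in each direction in KD, and 16.9% higher and 18% lower in OE.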
